A study of Bos taurus with 10 samples.

Results

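Vesicle traffic genes of the RAB, ARF, SNARE, sorting nexin, VPS and clathrin adaptor families were followed across 5 tissues of lactating cattle. They were taken by symbol: every current symbol that starts with RAB, ARF, STX, VAMP, SNAP, SNX or VPS followed by a digit, and every subunit of the adaptors AP-1, AP-2 and AP-3. This gave 80 of the 4366 genes that could be named on the array, printed as 100 cDNA elements. They were 26 RAB genes, 4 ARF genes, 11 SNARE genes, 14 sorting nexins, 13 VPS genes and 12 adaptor subunits. The rule took RAB11FIP5 and RAB5IF with the RAB genes although neither is a GTPase. The first encodes an effector of RAB11 and the second was named for an interaction with RAB5. All 80 genes had a value on every array, so no member was lost to a filter.

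Traffic between membrane compartments runs on a shared set of parts. RAB and ARF proteins are small GTPases that mark a membrane and recruit effectors and coats to it. Adaptor complexes select cargo for a clathrin-coated vesicle, with AP-1 acting between the trans-Golgi network and endosomes, AP-2 at the plasma membrane and AP-3 on the route to lysosomes and related organelles. SNARE proteins on vesicle and target membrane pair and drive fusion, while sorting nexins and VPS proteins sort cargo within endosomes, back to the Golgi or on to the lysosome. In the lactating mammary gland this machinery carries milk proteins and membrane to the apical surface, in liver it secretes plasma proteins and turns over receptors, and in adipocytes it moves glucose transporters and adipokines.

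Total RNA came from cow (Bos taurus) at peak lactation, with 1 sample for each of liver, mammary gland and the mesenteric, omental and subcutaneous adipose depots. The labels name no breed, age or treatment, and do not say whether the tissues came from the same animal. Each RNA was hybridised on 2 two-channel cDNA arrays against a reference RNA made from mixed tissues. The dyes were swapped between these arrays (Cy3 or Cy5 on the tissue), so the 2 arrays are 1 sample and no test between tissues is possible. A level here is the log2 ratio of tissue over reference, centred on the median of its array. A difference is the mean over both arrays of a tissue minus that of another, and the error after ± is the distance of either dye orientation from that mean. It measures dye and hybridisation error only, not the spread between animals. A difference counts as higher or lower under the size rule when it reaches 1 log2 unit (2-fold) and has the same sign in both orientations. Mesenteric and omental tissue were averaged as visceral adipose tissue, so the 3 comparisons against it share those arrays. Reference levels differ between genes, so levels were not set against each other across genes.

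The direction of the deposited ratio was not given in the sources used here. Cy5 over Cy3 is the likely one: with it, the median level of the 3 measured hepatocyte markers was 3.67 in liver and at most -1.01 elsewhere, and that of 10 mammary epithelial markers was 3.12 in mammary gland and at most 0.00 elsewhere. Single markers went otherwise. APOA1, of the hepatocyte list, read 0.85 in liver and 1.86 in subcutaneous tissue. KRT18, of the mammary list, was highest in liver, at -1.07 against -2.16 in mammary gland. With the opposite direction every difference below would change sign. Between 15970 and 16245 of 16416 spots per array had a value, and precision is limited by having 2 arrays a tissue. The subcutaneous sample stood apart. Its median over 19 myeloid markers was 2.61, from 0.71 for CD163 to 6.63 for S100A12, against 1.10 in mesenteric and 1.29 in omental tissue, and 15 of the 19 were higher than in visceral tissue while C1QC was lower. Its median over 6 adipocyte markers was 0.21, against 1.32 in mesenteric and 1.72 in omental tissue. In bulk RNA, more cells of a type and more RNA per cell cannot be told apart. One omental array carries channel labels that disagree. It was read by its title and dye label, and left out as an alternative. In that alternative omental tissue has its Cy3 array alone, so the dye offset of a gene does not cancel in its differences.

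Most of the vesicle traffic genes ranged over less than 2-fold across the 5 tissues, as did most named genes, and a few stood out. The range of a gene's 5 tissue means had a median of 0.71 log2 units over the 80 members and 0.73 over all named genes with a value on every array. It reached 1 log2 unit in 19 of 80 members (23.8%), against 32.8% of all such genes. In 8 of these 19 (42.1%) the highest tissue was subcutaneous adipose tissue, which was highest in 32.6% of the 1414 such genes among all. Liver was highest in 5 members (26.3%; 30.3% of all), mammary gland in 5 (26.3%; 12.2%) and omental tissue in 1 (5.3%; 9.9%). The highest tissue differed between the dye orientations for AP3M1 and STX1A, counted for mammary gland. It also differed for RAB11FIP5, counted for subcutaneous tissue. Of the 80 members, 14 (17.5%) passed the size rule in at least 1 of the 5 comparisons, against 26.5% of all 4307 genes, together in 30 of 400 differences. They were 5 RAB genes, 4 sorting nexins, 4 adaptor subunits and 1 SNARE gene. No ARF gene and no VPS gene passed.

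**Figure D1:**
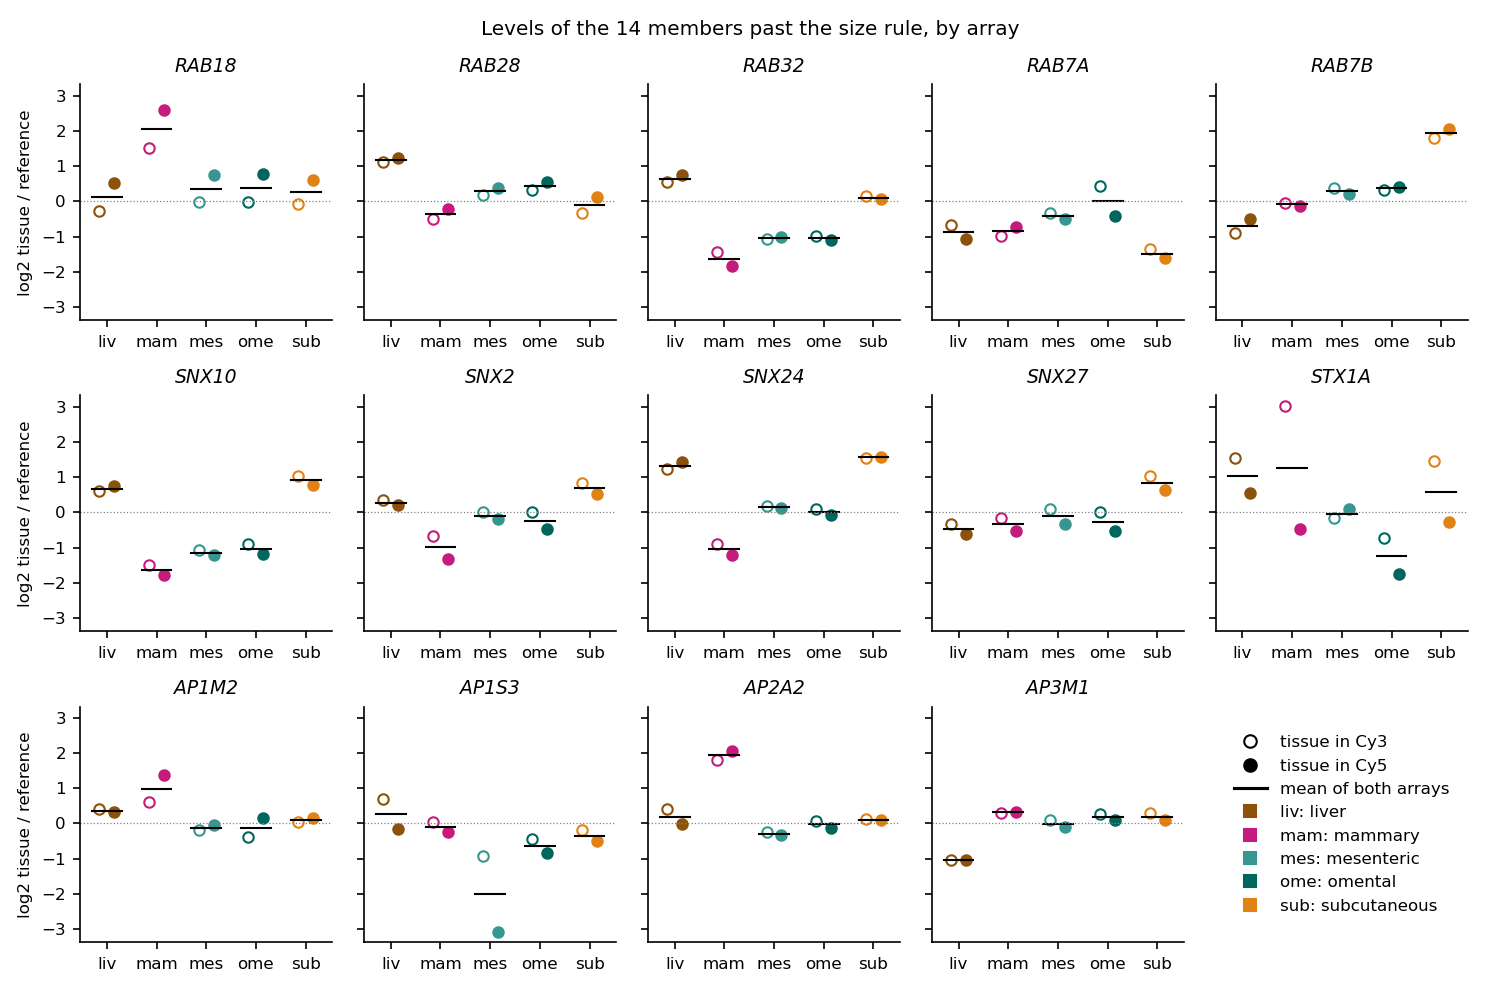
Log2 ratio of tissue over reference for the 14 genes past the size rule, with 1 point per array (open, tissue in Cy3; filled, tissue in Cy5) and a bar at the mean of both. RAB18 and AP2A2 are highest in mammary gland, SNX10, SNX24 and RAB32 are high in liver and subcutaneous tissue, and the arrays of STX1A in mammary gland lie far apart at 3.01 and -0.48.

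In liver against mammary gland, 5 members were higher in liver and 3 lower. These are 6.25% and 3.75% of the members, beside 9.39% and 4.44% of all 4325 genes compared. The higher ones were SNX24, SNX10, RAB32, RAB28 and SNX2, and the lower ones RAB18, AP2A2 and AP3M1. Without centring the split was 5 higher and 9 lower, as the median of all genes then moved from -0.01 to -0.22.

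Against visceral adipose tissue, liver had 5 members higher (6.25%; 7.44% of all 4330 genes) and 2 lower (2.5%; 5.96% of all genes). Higher were SNX10, RAB32, STX1A, AP1S3 and SNX24, and lower were AP3M1 and RAB7B. Of these, STX1A and AP1S3 rest on duplicate spots that disagreed, as described with those genes. Quantile normalisation left 4 higher and 0 lower, with AP3M1 at -0.99, RAB7B at -0.98 and SNX24 at 0.99, each just short of the rule.

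Mammary gland had 5 members higher than visceral adipose tissue (6.25%; 3.27% of all 4318 genes) and 1 lower (1.25%; 6.3% of all genes). AP2A2, STX1A, RAB18, AP1S3 and AP1M2 were the higher ones and SNX24 the lower one. STX1A and AP1S3 were measured with duplicate spots that disagreed, as described with those genes. The higher share of the members rests in part on them. Without centring and after quantile normalisation alike the split was 5 higher and 0 lower. The mammary epithelial markers stood higher in the same comparison, 8 of 10 past the size rule with a median difference of 2.76, while adipocyte markers (5 of 6 lower, median -1.74), fibroblast and matrix markers (8 of 8, -2.84), endothelial markers (4 of 5, -1.24) and 8 of 19 myeloid markers were lower. Their part in these differences was not tested.

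Subcutaneous tissue had 6 members higher than visceral adipose tissue (7.5%; 6.23% of all 4332 genes) and 1 lower (1.25%; 3.69% of all genes). SNX10, RAB7B, SNX24, STX1A, RAB32 and SNX27 were higher and RAB7A lower. Of these, STX1A and RAB7A rest on duplicate spots that disagreed, as described with those genes. The median difference of the members was 0.20, against 0.01 for all genes. In both dye orientations 47 of the 80 were above 0 and 20 were below 0. Signs were counted over the members alone, and 22 of the 80 differences changed sign without centring. The myeloid markers moved in the same comparison, with a median difference of 2.89, and their part in the members' differences was not tested. Without centring 26 members were higher and 0 lower, as the median of all genes itself then stood at 0.64.

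Between the visceral depots the members were nearly level. In mesenteric against omental tissue, 1 member was higher, STX1A (1.25%; 0.783% of all 4340 genes), and 1 lower, AP1S3 (1.25%; 0.576% of all genes). Both were measured with duplicate spots that disagreed, as described with those genes, and neither remained in the comparison when only elements with agreeing duplicates were kept. Without centring AP1S3 alone passed, and the split was 0 higher and 1 lower.

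**Figure D2:**
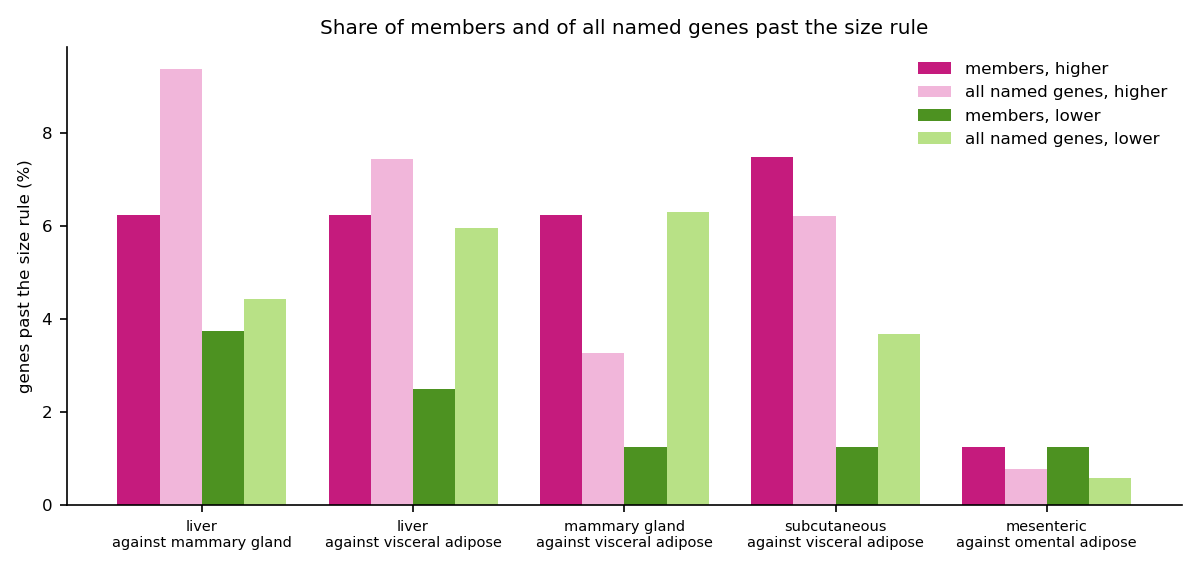
Percentage of genes past the size rule in each comparison, higher and lower in the first-named tissue, for the 80 members (dark bars) and all named genes (light bars). In mammary gland against visceral adipose tissue the members had 6.25% higher and 1.25% lower, against 3.27% and 6.3% of all genes. STX1A and AP1S3, among those higher members, rest on duplicate spots that disagreed.

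Of the 26 genes of the RAB set, 5 passed the size rule somewhere (19.2%; 26.5% of all genes), and they did not share a tissue. RAB18, which is found on the endoplasmic reticulum and on lipid droplets, was highest in mammary gland. Its levels there were 1.52 with the tissue in Cy3 and 2.59 with the tissue in Cy5. In the other 4 tissues they ran from -0.28 to -0.02 in Cy3 and from 0.51 to 0.79 in Cy5. Within each dye orientation the mammary array lay above all the others, and the Cy5 arrays were on average 0.82 above the Cy3 arrays, an offset that cancels in the differences. RAB18 was 3.83-fold lower in liver than in mammary gland (-1.94 ± 0.14) and 3.20-fold higher in mammary gland than in visceral adipose tissue (1.68 ± 0.14).

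RAB32, a GTPase of lysosome-related organelles and mitochondria, had its highest levels in liver, at 0.56 in Cy3 and 0.74 in Cy5. Subcutaneous tissue followed at 0.16 and 0.06. The visceral depots lay between -1.08 and -0.98 on all 4 arrays, and mammary gland lowest at -1.42 and -1.82. No array of liver or subcutaneous tissue overlapped any array of the other 3 tissues. The difference was 2.27 ± 0.29 for liver against mammary gland (4.82-fold), 1.68 ± 0.10 for liver against visceral tissue and 1.15 ± 0.03 for subcutaneous against visceral tissue.

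RAB7A and RAB7B are both GTPases of late endosomes, the first needed for transport to lysosomes and the second for transport from late endosomes to the trans-Golgi network. They went opposite ways in subcutaneous tissue. RAB7B measured 1.81 and 2.06 there, between 0.20 and 0.42 in the visceral depots, -0.04 and -0.12 in mammary gland, and -0.89 and -0.50 in liver. Subcutaneous tissue was 3.03-fold higher than visceral tissue (1.60 ± 0.15) with no overlap of arrays. Liver was lower than visceral tissue by a difference of -1.03 ± 0.22, which fell short of the rule on the Cy5 arrays alone (-0.81) and against mesenteric tissue alone (-0.98).

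RAB7A measured -1.35 and -1.60 in subcutaneous tissue, -0.33 and -0.50 in mesenteric tissue, and 0.45 and -0.40 in omental tissue. Liver and mammary gland lay between -1.07 and -0.66. The subcutaneous difference was -1.28 ± 0.13 from visceral tissue, and -0.65 without centring. It rests on 1 element whose duplicate spots disagreed by 1 log2 unit or more on 3 of 10 arrays: in subcutaneous tissue in Cy5 they read -0.26 and -2.95. RAB7A therefore had no value in the comparison limited to elements with agreeing spots.

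RAB28, a small GTPase linked to cilia and photoreceptors, was high in liver with 1.13 and 1.24. Mammary gland read -0.49 and -0.20 and subcutaneous tissue -0.33 and 0.13, while the visceral arrays ran from 0.17 to 0.54. Liver was 2.88-fold higher than mammary gland (1.53 ± 0.09). Its differences from visceral tissue were 0.82 ± 0.06 for liver and -0.70 ± 0.03 for mammary gland, both under the rule.

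The other 21 genes of the RAB set passed in no comparison, and in 12 of them all 5 differences were under 0.5. RAB5IF came nearest, with 0.995 ± 0.21 in liver against mammary gland, just below the 1 log2 unit of the rule, and RAB11FIP5 followed with -0.95 ± 0.11. Among the RABs of early and recycling endosomes, RAB4B, RAB5B, RAB5C, RAB11A, RAB11B, RAB14, RAB15, RAB22A, RAB25 and RAB31, 8 of 10 were below 0 in liver against visceral tissue as centred and 5 of 10 after quantile normalisation, so no shared direction can be read. RAB11A, which directs recycling endosomes to the plasma membrane, stood lowest there at -0.87 ± 0.09. Its 2 elements read -0.82 and -0.19 in liver, a gap that the error after ± does not cover. RAB25, the epithelial relative of RAB11A, measured 0.53 in mammary gland and between -0.28 and -0.18 in the other tissues, a difference of 0.71 ± 0.11 from visceral tissue. RAB31 was highest in subcutaneous tissue, with a mean of 0.06 against -0.57 in mesenteric and -0.51 in omental tissue. Its 2 elements read 0.45 and -0.32 in subcutaneous tissue.

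The RABs of the secretory route, RAB1A, RAB8A, RAB10, RAB13, RAB33A and RAB37, stayed between -0.59 and 0.72. RAB1A, which acts from the endoplasmic reticulum to the Golgi, gave both ends of that span: -0.59 in liver against mammary gland and 0.72 ± 0.11 in subcutaneous against visceral tissue. RAB9A, which returns mannose 6-phosphate receptors from late endosomes to the Golgi, ranged from -0.06 to 0.46 over the 5 differences. RAB20 stayed between -0.30 and 0.04, and RAB24, which is tied to autophagy, between -0.45 and 0.40. Where a gene had several elements, their agreement is given as the cosine of their profiles over the 5 tissue means, which is 1 for profiles of the same shape and near 0 for unrelated ones. It was 0.95 for RAB9A, 0.88 for RAB11A and RAB31, 0.84 for RAB22A, 0.56 for RAB15, 0.39 for RAB8A and 0.27 for RAB14. The elements of RAB14 read -0.55 and 0.41 in mammary gland. Those of RAB5C (-0.37) and RAB10 (-0.43) did not follow each other, and 1 element of each had duplicate spots that disagreed by 1 log2 unit or more. The means of RAB5C and RAB10 are therefore uncertain, and so are those of RAB14 and RAB8A, whose elements had low cosines.

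**Figure D3:**
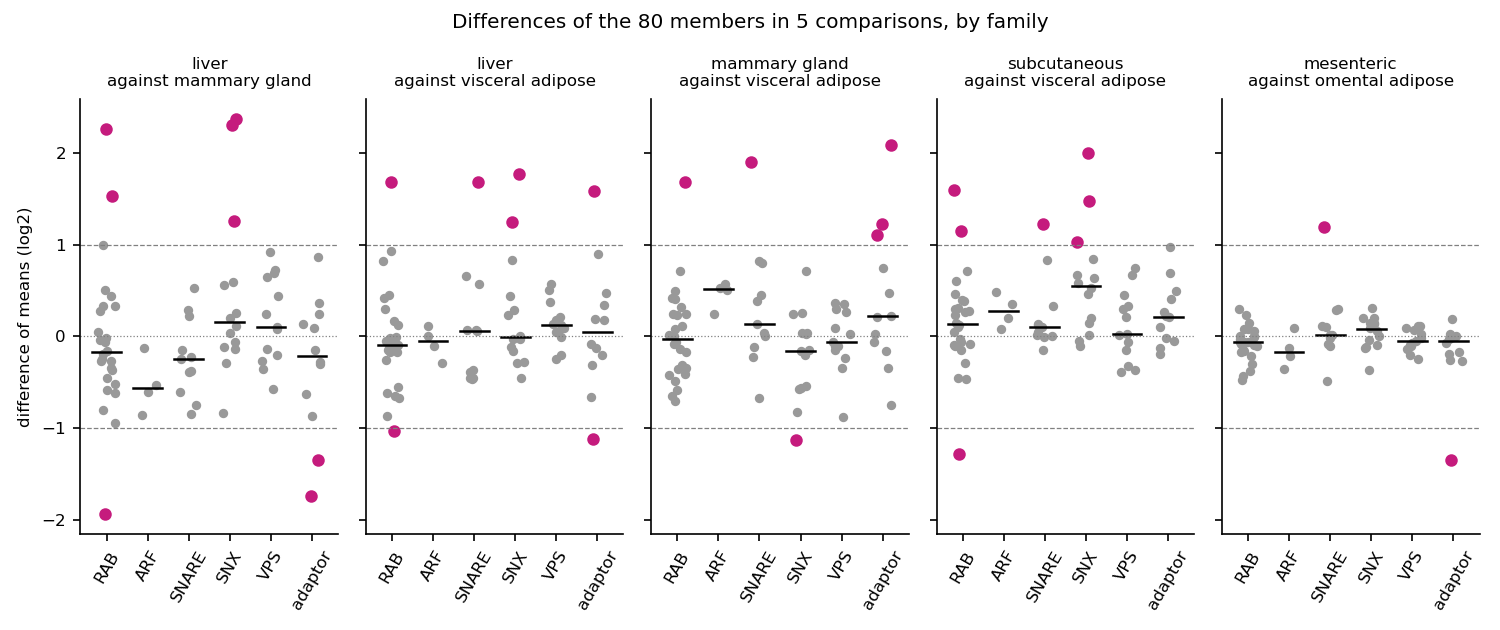
Differences of the 80 members (log2) in each of the 5 comparisons by family, with members past the size rule in colour, a bar at the family median and dashed lines at 1 and -1. Sorting nexins in subcutaneous against visceral adipose tissue have the highest bar of that panel, at 0.55, and in the mesenteric against omental panel all but 2 members lie inside the dashed lines.

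The 4 ARF genes, whose products recruit coats to Golgi and endosome membranes, did not pass in any comparison, while 26.5% of all genes passed somewhere. In mammary gland against visceral tissue all 4 were above 0, with a median of 0.52, as they were without centring (0.69) and after quantile normalisation (0.58). ARF4 had the highest difference at 0.57, followed by ARF5 at 0.53 and ARF1 at 0.50, while ARF3 was at 0.24. In liver against mammary gland, which shares the mammary arrays, all 4 were below 0, from -0.86 ± 0.37 for ARF4 to -0.13 for ARF3. In both comparisons 3 of the 4 had the same sign in both dye orientations, and those of ARF3 differed in sign. In subcutaneous against visceral tissue all 4 were again above 0, with a median of 0.28. In liver against visceral tissue the family was level, with a median of -0.05 as centred and 0.06 after quantile normalisation.

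Of the SNARE genes, 1 of 11 passed (9.1%; 26.5% of all genes). STX1A, a plasma membrane syntaxin best known from nerve terminals, did so in 4 comparisons, on poor spots. Its arrays read 1.53 and 0.55 in liver, 3.01 and -0.48 in mammary gland, -0.17 and 0.08 in mesenteric, -0.73 and -1.74 in omental, and 1.45 and -0.27 in subcutaneous tissue. In all but mesenteric tissue the array with the tissue in Cy3 was the higher one. Duplicate spots disagreed by 1 log2 unit or more on 3 arrays and 1 spot was missing on another 2. The differences were 1.68 ± 0.30 for liver, 1.91 ± 1.55 for mammary gland and 1.23 ± 0.67 for subcutaneous tissue against visceral tissue, and 1.19 ± 0.64 for mesenteric against omental tissue. From the Cy5 arrays alone the mammary difference was 0.35 and the subcutaneous one 0.56. Without the omental array whose labels disagree, the subcutaneous difference was 0.98 and the depot difference 0.68. Omental tissue then had its Cy3 array alone, so the dye offset of STX1A does not cancel in these values. The mammary difference also failed the rule without that array (1.65) and against mesenteric tissue alone (1.31), since its dye orientations then differed in sign. The depot difference was also under the rule without centring (0.88).

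STX3, the syntaxin of apical membranes in epithelia, was measured with 3 elements that followed each other (lowest cosine 0.88). Its mean was 1.06 in mammary gland, 0.31 in liver and between 0.23 and 0.24 in the 3 adipose tissues. Mammary gland against visceral tissue gave 0.82 ± 0.48, under the rule. STX7, a SNARE of late endosomes and lysosomes, ran the other way: its mean was 0.26 in subcutaneous tissue, -0.57 in mesenteric, -0.58 in omental, -1.03 in liver and -1.25 in mammary gland. That was a difference of 0.83 ± 0.13 between subcutaneous and visceral tissue.

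The SNAREs of endosomes and the trans-Golgi network, STX6, STX8, STX10, STX12 and STX16, ranged from -0.85 to 0.81 over the 5 comparisons. STX10 was highest in mammary gland (0.65) and liver (0.50). STX12, also on endosomes, was higher in mammary gland than in liver by 0.85 ± 0.41. The vesicle SNAREs VAMP3 and VAMP8 and the SNAP-25 relative SNAP47 stayed between -0.39 and 0.45. The 2 elements of VAMP3 had a low cosine of 0.32. VAMP8, which serves regulated secretion and late endosome fusion, had its highest mean in mammary gland (0.53).

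Sorting nexins had the highest median of the 6 families in subcutaneous against visceral tissue, at 0.55. In that comparison 12 of 14 sorting nexins were above 0, 11 of them in both dye orientations. These signs were not counted over all genes. The size rule was passed by 3 of them, SNX10, SNX24 and SNX27, and by 6.23% of all genes as higher. The median stayed near this value after quantile normalisation (0.62). Without centring it was 1.18, against 0.64 for all genes. Values of the myeloid markers in this sample are given above, and their part in this family's shift was not tested.

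SNX10, an endosomal sorting nexin required by bone-resorbing osteoclasts, had 2 elements with profiles of like shape (cosine 0.96) but unlike size. The first read 1.16 in subcutaneous, -1.48 in mesenteric and -1.41 in omental tissue, and the second 0.65, -0.80 and -0.68. This gap is not part of the error after ±. Averaged over both elements, the levels of SNX10 were 1.03 and 0.78 in subcutaneous tissue and 0.61 and 0.74 in liver. They were between -1.20 and -0.90 on the 4 visceral arrays, and -1.48 and -1.78 in mammary gland. Liver and subcutaneous arrays all lay above 0 and those of the other 3 tissues all below. The difference was 2.30 ± 0.21 for liver against mammary gland (4.94-fold), 1.77 ± 0.17 for liver against visceral tissue and 2.00 ± 0.02 for subcutaneous against visceral tissue (4.00-fold).

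SNX24, a small protein with little beyond the lipid-binding PX domain, had the largest difference of any member over the 5 comparisons. The widest range of tissue means was that of RAB7B (2.63), with SNX24 next at 2.61. It read 1.22 and 1.44 in liver, 1.55 and 1.58 in subcutaneous tissue, -0.90 and -1.20 in mammary gland, and between -0.07 and 0.19 in the visceral depots. The order of its tissues was the same in both dye orientations. Liver was 5.19-fold higher than mammary gland (2.38 ± 0.26) and higher than visceral tissue by 1.25 ± 0.17 (0.75 against the mean of all 3 depots), and subcutaneous tissue was higher than visceral tissue by 1.48 ± 0.07. Mammary gland was lower than visceral tissue, at -1.13 ± 0.09, a call that was lost without centring (-0.96) and after quantile normalisation (-0.97).

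SNX2, a coat subunit that works with retromer on endosomal tubules, had 2 elements with a cosine of 0.99. Its arrays read 0.34 and 0.21 in liver, -0.66 and -1.31 in mammary gland, 0.85 and 0.52 in subcutaneous tissue, and between -0.47 and 0.01 in the visceral depots. Mammary gland was lowest on both dyes, and liver was higher by 1.26 ± 0.26 (0.999 on the Cy3 arrays alone, at the edge of the rule). SNX27, which returns receptors and transporters from endosomes to the plasma membrane with retromer, read 1.04 and 0.64 in subcutaneous tissue and at most 0.10 on any array of the other tissues. Its difference from visceral tissue was 1.03 ± 0.04. It stood at the edge of the rule, with 0.96 against mesenteric tissue alone and 0.89 without the omental array whose labels disagree. In the latter value the dye offset does not cancel, and the mean Cy5 minus Cy3 level of SNX27 was -0.40.

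The other 10 sorting nexins were SNX1, SNX3, SNX5, SNX9, SNX12, SNX14, SNX16, SNX17, SNX22 and SNX25, and their differences ran from -0.84 to 0.84. SNX22 was the one with its highest level in mammary gland, a mean of 0.82 against at most 0.15 elsewhere. SNX25 was highest in liver, 0.84 ± 0.25 above visceral tissue. In subcutaneous tissue SNX14 (0.67), SNX5 (0.64), SNX3 (0.58) and SNX17 (0.53) stood above visceral tissue without passing. SNX5 did so on both of its elements, which had a cosine of 0.93. SNX9, which acts in clathrin-mediated uptake, was lowest in mammary gland, with a mean of 0.08 against 0.48 to 0.79 elsewhere.

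The 13 VPS genes, mostly subunits of endosomal sorting and tethering complexes, passed in no comparison, while 26.5% of all genes passed somewhere. All 5 differences were under 0.5 in 6 of them. VPS26B, a retromer subunit, came closest: its mean was -1.07 in mammary gland, -0.15 in liver and -0.07 in omental tissue, a difference of 0.92 ± 0.06 for liver against mammary gland and -0.87 ± 0.06 for mammary gland against visceral tissue. VPS29, its partner in retromer, ranged from -0.27 to 0.33. With their sorting nexins SNX1, SNX2, SNX3, SNX5 and SNX27, a grouping made after the values were seen, the median of the 7 was 0.58 in subcutaneous and -0.16 in mammary tissue against visceral tissue. In subcutaneous tissue 5 of the 7 were above 0 and 2 below, with VPS26B lowest at -0.39. The mammary median was 0.004 without centring and -0.07 after quantile normalisation, so no shared direction can be read there.

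Among the subunits of the HOPS and CORVET tethers and their relative, VPS8, VPS16, VPS18, VPS33B and VPS39, the largest difference was 0.72 ± 0.19 for VPS39 in liver against mammary gland. VPS33B gave 0.69 there, but its 2 elements did not follow each other (cosine 0.09). The ESCRT subunits VPS25 and VPS28 and the ATPase VPS4A, which sort ubiquitinated cargo into late endosomes, passed in no comparison. VPS28 had the highest of their differences in liver, at 0.65, while VPS4A stood at 0.08 against mammary gland, with dye orientations of opposite sign. The GARP subunits VPS52 and VPS53, which tether vesicles at the trans-Golgi network, stayed between -0.37 and 0.27, and the elements of VPS52 did not follow each other (cosine 0.03). VPS13C, a lipid transfer protein at organelle contacts, reached 0.75 ± 0.01 in subcutaneous against visceral tissue, and its elements had a cosine of 0.72. Those elements read 1.46 and 0.30 in subcutaneous tissue, a gap that the error after ± does not cover. The mean of VPS13C is therefore uncertain.

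Of the 12 adaptor subunits 4 passed (33.3%; 26.5% of all genes), AP1S3 among them on spots that disagreed. In AP-2 and AP-3 the subunit that passed was not joined by the others. In AP-2, which takes up cargo at the plasma membrane, the alpha subunit AP2A2 read 1.81 and 2.06 in mammary gland. On the other 8 arrays it lay between -0.34 and 0.40, with no overlap. It was 4.24-fold higher in mammary gland than in visceral tissue (2.08 ± 0.20), and liver was lower than mammary gland, at -1.74 ± 0.33. Its partner subunits AP2B1, AP2M1 and AP2S1 were below 0 in the same mammary comparison, AP2B1 at -0.75 ± 0.02 on 2 elements with a cosine of 0.91. In subcutaneous tissue AP2M1 (0.50) and AP2S1 (0.40) stood slightly above visceral tissue.

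In AP-1, which sorts between the trans-Golgi network and endosomes, all 5 subunits were above 0 in mammary gland against visceral tissue, with a median of 0.74. Of these AP1G1 was at 0.03, with dye orientations of opposite sign, and AP1S3 rests on spots that disagreed. AP1M2, the mu subunit found in epithelial cells, measured 0.60 and 1.37 in mammary gland, 0.40 and 0.32 in liver, and between -0.38 and 0.15 in the adipose tissues. Mammary gland was 2.15-fold higher than visceral tissue (1.11 ± 0.22), and 0.89 on the Cy3 arrays alone. AP1M1, the widely expressed mu subunit, stayed between -0.30 and 0.22 over the 5 comparisons. AP1S1, a sigma subunit, gave 0.74 ± 0.11 in mammary gland against visceral tissue. AP1G1, the gamma subunit, was instead highest in liver, at 0.90 ± 0.05 above visceral tissue.

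AP1S3, another sigma subunit of AP-1, passed in 3 comparisons on spots that disagreed. Its arrays read 0.70 and -0.16 in liver, 0.05 and -0.24 in mammary gland, -0.92 and -3.07 in mesenteric, -0.45 and -0.84 in omental, and -0.18 and -0.51 in subcutaneous tissue. The mesenteric value in Cy5 is the mean of spots at -5.26 and -0.88, and duplicate spots disagreed by 1 log2 unit or more on 5 of 10 arrays. The differences from visceral tissue were 1.59 ± 0.21 for liver and 1.22 ± 0.49 for mammary gland, and mesenteric against omental tissue gave -1.35 ± 0.88. Against omental tissue alone, liver gave 0.92 and mammary gland 0.55, both under the rule. On the Cy3 arrays alone the mammary difference was 0.73 and the depot difference -0.47.

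In AP-3 the size rule was passed by AP3M1, its mu subunit, which was low in liver. AP3M1 read -1.05 and -1.03 in liver and between -0.10 and 0.34 on the other 8 arrays, on 2 elements with a cosine of 0.98. Liver was 2.55-fold lower than mammary gland (-1.35 ± 0.01) and 2.18-fold lower than visceral tissue (-1.13 ± 0.10). AP3D1, the delta subunit, differed from visceral tissue by 0.19 in liver and by 0.69 in subcutaneous tissue, and AP3S2, a sigma subunit, stayed between -0.26 and 0.24.

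**Figure D4:**
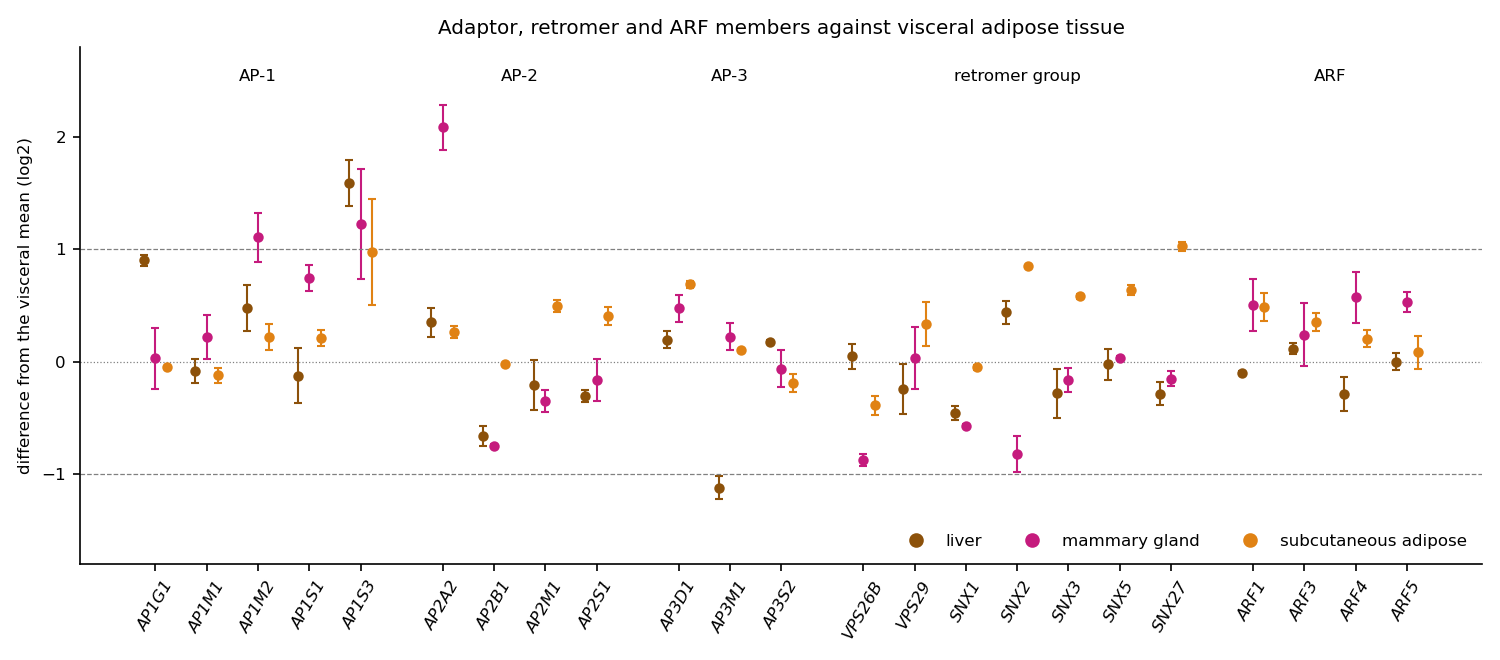
Differences from the visceral mean (log2) of the adaptor subunits, the retromer group and the ARF genes in liver, mammary gland and subcutaneous adipose tissue, with bars reaching to either dye orientation. AP2A2 in mammary gland (2.08) stands apart from the other AP-2 subunits, and AP3M1 in liver (-1.13) from the other AP-3 subunits.

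The spots behind these values were mostly close. Over 1000 pairs of element and array, the median gap of the duplicate spots was 0.10, and it reached 1 log2 unit in 19, which belonged to 7 members. STX1A, AP1S3 and RAB7A were among these 7 and carried 8 of the 30 differences past the size rule. The remaining 22 belonged to 11 members with no such gap on any array. Of the 14 genes, SNX2, SNX10 and AP3M1 were each measured with 2 elements, and the other 11 with 1 element each, so that for these 11 no second clone bears on the value. The print layout behind the names was itself chosen for agreement between clones of a gene. The cosines given for members are therefore not independent support for their names or values.

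**Figure D5:**
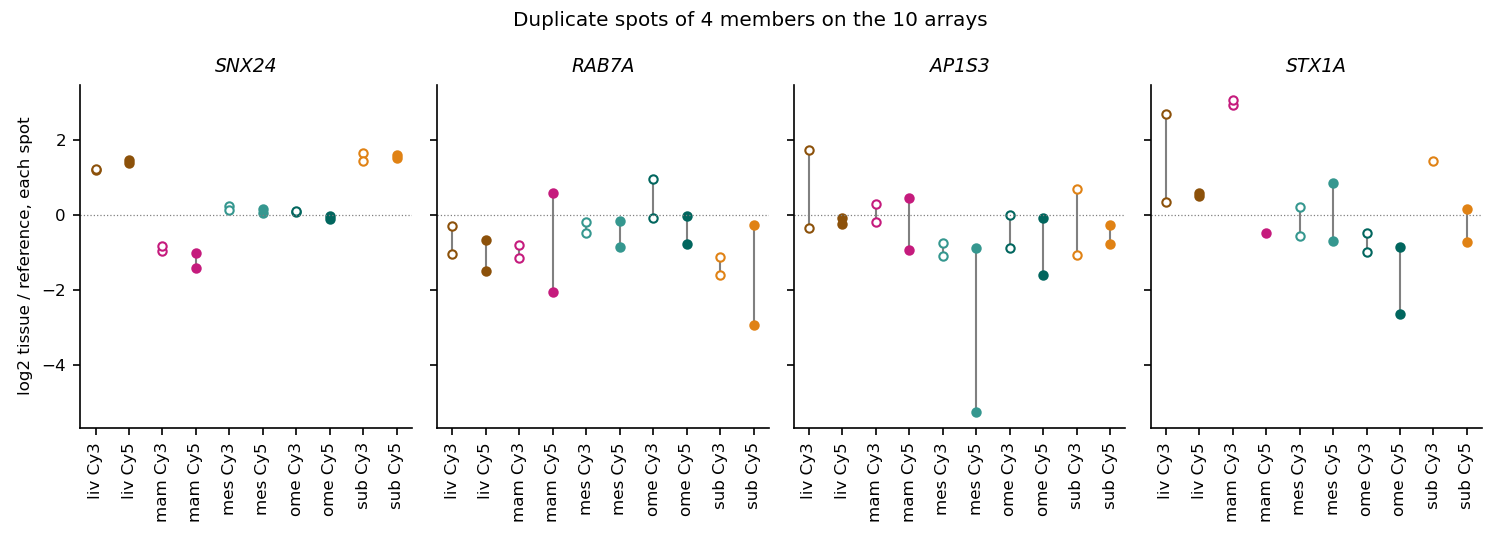
Log2 ratio of each duplicate spot on the 10 arrays for SNX24, RAB7A, AP1S3 and STX1A (open, tissue in Cy3; filled, Cy5; a line joins the spots of an array). The spots of SNX24 nearly coincide, while those of AP1S3 in mesenteric tissue in Cy5 lie at -5.26 and -0.88.

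Other genes of the pathway were read from a list of 210 regulators, tethers, coats and cargo receptors, of which 77 were named on the array. Liver against mammary gland had 3 of 77 higher and 2 lower (9.39% and 4.44% of all genes), and liver against visceral tissue 5 of 76 higher and 3 lower (7.44% and 5.96%). Mammary gland against visceral tissue had 0 higher and 1 lower (3.27% and 6.3%), and subcutaneous against visceral tissue 2 higher and 2 lower (6.23% and 3.69%). Between the depots none of 76 passed (0.783% and 0.576%). LMAN1 and LMAN2, cargo receptors that carry glycoproteins out of the endoplasmic reticulum, were both higher in liver: LMAN1 by 1.54 ± 0.41 and LMAN2 by 2.04 ± 0.18 against mammary gland. TRAPPC13, a subunit of a tethering complex, was higher in liver by 1.67 ± 0.03 against mammary gland. GGA2, an ARF-dependent adaptor, and EXOC2, an exocyst subunit, were lower there, at -1.19 ± 0.37 and -1.06 ± 0.08.

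In visceral adipose tissue, TBC1D4, the RAB GTPase-activating protein through which insulin controls glucose transporter traffic, and DAB2, a clathrin adaptor for lipoprotein receptors, were high. TBC1D4 had a mean of 1.12 in mesenteric and 0.99 in omental tissue, against 0.04 in subcutaneous tissue and -0.37 in liver. DAB2 measured 1.67 and 1.57 in these depots, 0.43 in subcutaneous tissue, -0.26 in liver and -0.83 in mammary gland. In mammary gland against visceral tissue DAB2 passed the size rule as lower and TBC1D4 did not pass. STXBP2, the Munc18 protein that serves syntaxins in epithelia and blood cells, was higher than in visceral tissue in liver (1.53 ± 0.05) and in subcutaneous tissue (1.45 ± 0.07). M6PR, the cation-dependent mannose 6-phosphate receptor, was higher in subcutaneous tissue by 1.17 ± 0.13. ARFGEF1, an exchange factor for ARF proteins, was higher in liver than in visceral tissue by 1.05 ± 0.06, and TBC1D20, a GTPase-activating protein for RAB1, was lower, at -1.06 ± 0.08.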

How the data were processed

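The authors deposited 1 log ratio per spot for 10 arrays, quantified in GenePix 4.0 per the labels' design text. The deposited values were read as log2 ratios from their ceiling: 94 values equal 16.61, which is log2 of 100000. How intensities became ratios (background, scaling) was not given in the sources used here. Ceiling values were set to missing, the sign was turned where the tissue was in Cy3, and each array was centred on its median, which ran from -1.32 to 0.708 as deposited. Neighbouring rows were averaged as duplicate spots (r 0.83 to 0.92).

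Annotation identifiers do not follow the rows, so 48 table blocks of 171 elements were joined to 16 annotation blocks of 528 identifiers through 384-well plates, keeping plates 1 to 20. The layout chosen was the one where clones of a gene agreed best (mean cosine 0.80 over the 162 pairs whose profiles vary, 0.76 over 151 such pairs of held-out genes, 0.40 for the next layout). Over all 686 and 621 pairs, flat profiles included, it was 0.45 in both sets. By plate, the mean cosine of varying pairs was lowest on plates 1 (0.505) and 19 (0.499), with medians of 0.85. Names on these plates, SNX22, VPS29, RAB11FIP5 and AP3D1 among them, are less well supported. The names thus rest on this reconstruction. It was tested on simulated data, as was the comparison code. Of 5472 named elements, 5467 matched a gene of RefSeq (ARS-UCD2.0). Elements of a gene were averaged (Python 3.11.15, numpy 2.4.6, pandas 2.3.3).

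Every member past the size rule was named. The members, gene lists and comparisons were chosen with earlier results of these data known, and the groupings by complex or compartment after the values were seen.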

Additional observations from a re-analysis of the deposited data

How the results depend on the processing

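None of the 30 differences past the size rule changed sign under any alternative. Of 195 values recomputed for them under settings that could move them, 167 still passed. Over all 400 member differences, 76 changed sign without centring and 21 after quantile normalisation, so that the RAB genes went from 8 above and 18 below 0 to 0 and 26 in mesenteric against omental tissue without centring, and to 13 and 13 in liver against visceral tissue after quantile normalisation. In liver against mammary gland, 8 members passed as reported, 14 without centring, 13 to 15 with the arrays of 1 dye orientation left out, and 27 with a size rule of 1.5-fold. In liver against visceral tissue, 7 passed as reported, 4 after quantile normalisation and 17 at 1.5-fold. Mammary gland against visceral tissue went from 6 to 17 at 1.5-fold. Subcutaneous against visceral tissue went from 7 to 26 without centring and to 17 at 1.5-fold. In mesenteric against omental tissue, 2 passed as reported, 1 without centring, 0 to 2 with the arrays of 1 dye orientation left out, 0 with elements of agreeing duplicate spots alone, and 1 without the omental array whose labels disagree. A smaller size rule passes more genes by construction. No share of all named genes under the same setting stands beside these counts, so they do not show a change particular to the members. The cause of the other changes was not tested. Keeping ceiling values, or the median over elements, changed no count or call, and these settings and the limit to agreeing spots left the 30 differences as they were wherever the gene was kept. No paired analysis was possible because each tissue is 1 sample.

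With 1 RNA per tissue, the values describe these samples and not the spread between cows. Signal over background could not be judged, since the values are ratios without intensities. The base of the log, the direction of the ratio and the gene names are inferred, and the names depend on the reconstructed print layout.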
